A study of Danio rerio with 40 samples.

Results

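Melanin synthesis was read through 10 genes in whole zebrafish larvae (Danio rerio) that lack 4 Smad genes. The 10 genes were listed by name, and each matched exactly 1 of the 32520 rows of the count table. They encode the 4 enzymes of the pathway (tyr, tyrp1a, tyrp1b and dct), 2 fibril proteins (pmela and pmelb), 3 melanosome transporters (oca2, slc45a2 and slc24a5) and the transcription factor mitfa. All 10 were higher in the quadruple knockouts.

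The quadruple knockout (qKO) carried homozygous mutations of smad3a, smad3b, smad6a and smad6b. They were compared with wild-type control cousins (WT), which are relatives but not siblings of the mutants. Both groups were 5 days post fertilization, and each of the 5 libraries per genotype was a pool of 5 whole animals, sequenced with a stranded total RNA kit. No allele or agent other than these was named for either group. The remaining 30 of the 40 samples in the series, from adult aortas and from larvae lacking either the smad3 or the smad6 pair, were not analysed here. Melanophores and the retinal pigment epithelium of the eye both make melanin at this age, so a level below is a sum over both cell types. In such bulk samples a change in the number of pigment cells and a change in RNA per cell cannot be told apart.

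Melanin is made inside melanosomes, organelles related to lysosomes. Tyrosinase oxidises tyrosine, dopachrome tautomerase and the tyrosinase-related proteins act on later intermediates, and the polymer is laid down on amyloid fibrils of the Pmel protein. Ion transporters set the acidity and ion content of the melanosome, on which tyrosinase activity depends. Mitf is the basic helix-loop-helix factor that drives the melanocyte programme in vertebrates. Zebrafish that lack mitfa (the nacre mutant) have no body melanophores but keep the pigment of the eye, and the golden and albino mutants carry lesions in slc24a5 and slc45a2.

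The libraries held 20752303 to 191289475 counts in qKO pools and 16062147 to 110409906 counts in WT pools. The smallest count of any of the 10 genes was 11 (slc24a5 in WT pool 1). Levels are given as counts relative to a library size normalised by edgeR's TMM method (CPM, the usual depth-scaled unit), which are not per length, so they are compared between genotypes and not between genes. Transcripts of smad3a stood at 11.0 ± 1.71 CPM in qKO and 41.2 ± 3.48 CPM in WT, and those of smad3b at 6.52 ± 0.495 CPM in qKO and 13.9 ± 0.487 CPM in WT (SD, n = 5 each). Neither smad6 transcript was lower in qKO: smad6a averaged 40.3 CPM in qKO and 31.4 CPM in WT, and smad6b 39.8 CPM in qKO and 25.8 CPM in WT, so for this pair the genotype rests on the labels. The pools of each genotype stood apart as pools 1 and 2 against pools 3 to 5. The clock repressor gene nr1d1 marks the split, at 334 and 352 CPM in qKO pools 1 and 2 and 1.80, 1.59 and 2.62 CPM in qKO pools 3 to 5, against 8.94 and 8.45 CPM in WT pools 1 and 2 and 42.1, 48.0 and 45.9 CPM in WT pools 3 to 5. The labels name no batch or collection time for these sets. The 10 genes are therefore also given by pool set below, since the 5 pools of a genotype fell into 2 sets.

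Over all 22894 genes tested with edgeR's quasi-likelihood test, 13.4% were called higher in qKO at a Benjamini-Hochberg adjusted p under 0.05, and 12.5% were called lower. All 10 melanin synthesis genes had enough reads to be tested, and 10 of 10 were called higher (25.8% of tested genes were called in either direction). Their median log2 fold change (qKO over WT) was 1.92, against 0.03 over all tested genes, and their range was 0.62 to 3.66. In none of the 10 did the qKO and WT pools overlap, which held in the higher direction for 9.2% of all tested genes. Of all tested genes 3.26% were called higher by at least as much as the least changed of the 10, a bar set by the values of these 10 genes. The 10 genes were chosen with earlier results of these data known. Summed over the list, the level lay between 320 and 601 CPM in qKO pools and between 87.5 and 121 CPM in WT pools.

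**Figure D1:**
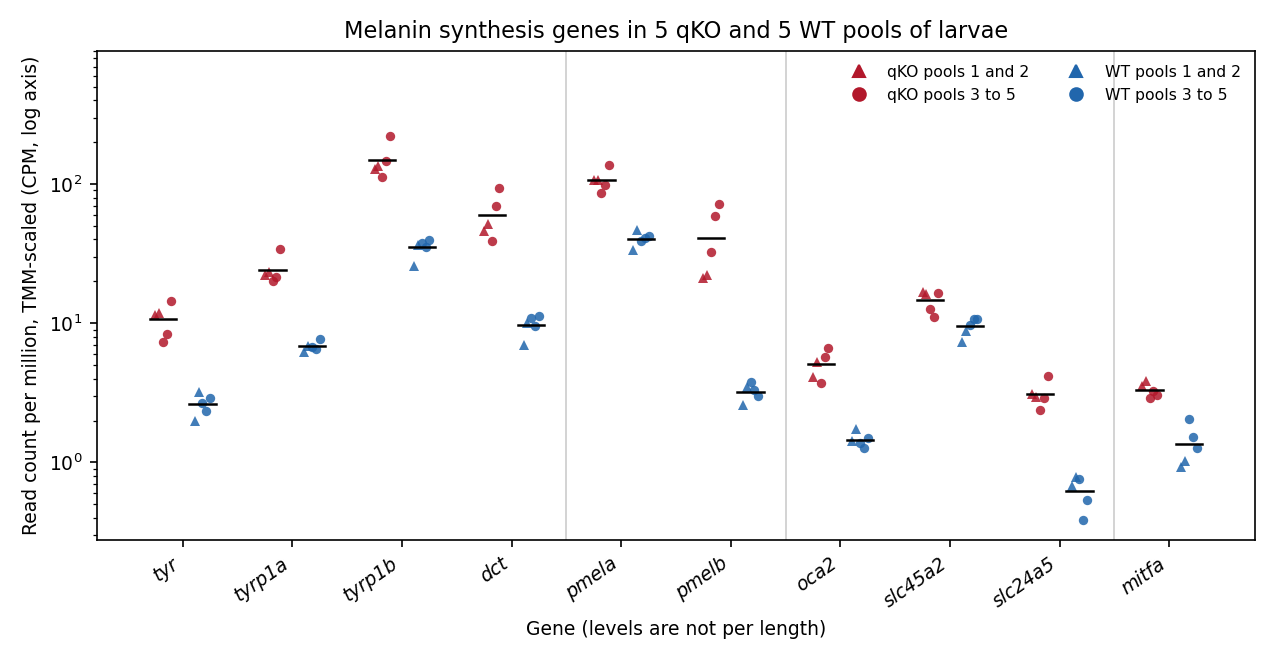
Levels of the 10 melanin synthesis genes in TMM-scaled CPM (log axis) in each pool of 5 larvae, with qKO in red on the left of each pair and WT in blue on the right; triangles are pools 1 and 2, circles are pools 3 to 5, bars are means of 5 pools, and grey lines part the enzymes, fibril proteins, transporters and mitfa. For each gene the 5 qKO pools sit above the 5 WT pools, narrowly so for slc45a2.

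Among the enzymes, tyr (ENSDARG00000039077) encodes tyrosinase, which catalyses the first and rate-limiting step. Its level was 11.5, 11.8, 7.28, 8.41 and 14.5 CPM in qKO pools 1 to 5, against 1.97, 3.22, 2.68, 2.34 and 2.92 CPM in WT pools 1 to 5. The lowest qKO pool, pool 3, lay 2.26-fold above the highest WT pool. The log2 fold change was 2.01 (SE 0.19, a 4.04-fold rise, adjusted p = 2.7e-05, edgeR).

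The tyrosinase-related protein 1 genes are a pair of duplicates in zebrafish; the mammalian protein stabilises tyrosinase and, in the mouse, oxidises a late intermediate of eumelanin. The level of tyrp1a (ENSDARG00000029204) was 22.4, 23.5, 20.2, 21.5 and 33.9 CPM in qKO pools 1 to 5, against 6.22, 6.82, 6.81, 6.53 and 7.74 CPM in WT pools 1 to 5. That of tyrp1b (ENSDARG00000056151) was 129, 136, 113, 147 and 220.4 CPM in qKO pools, against 25.9, 36.6, 38.0, 35.6 and 39.5 CPM in WT pools. In both genes qKO pool 5, the most deeply sequenced library, stood above the other 4 qKO pools. In edgeR's test tyrp1a rose 3.55-fold, or 1.83 on the log2 scale (SE 0.14), with an adjusted p of 4.26e-06. The rise of tyrp1b was 4.23-fold, or 2.08 on the log2 scale (SE 0.18), with an adjusted p of 1.62e-05. Without qKO pool 5 they were 1.66 and 1.88 on the log2 scale.

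The dct gene (ENSDARG00000006008) encodes dopachrome tautomerase, and of the 4 enzyme genes it had the largest fold change. Its level was 45.8, 52.1, 38.8, 69.2 and 93.7 CPM in qKO pools 1 to 5, against 6.96, 10.1, 11.0, 9.58 and 11.2 CPM in WT pools 1 to 5. Even the lowest qKO pool stood 3.45-fold above the highest WT pool, and qKO pools 4 and 5 stood above the other 3. The log2 fold change was 2.60 (SE 0.24, a 6.06-fold rise, adjusted p = 5.42e-05, edgeR).

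Both fibril genes were higher in qKO, pmelb by far more than its duplicate. The pmela gene (ENSDARG00000091298, mutated in the zebrafish fading vision line) stood at 107, 106, 86.5, 97.9 and 136 CPM in qKO pools 1 to 5, against 33.3, 46.9, 38.7, 40.8 and 42.4 CPM in WT pools 1 to 5. Its log2 fold change was 1.40 (SE 0.12, a 2.64-fold rise, adjusted p = 1.15e-05, edgeR). The pmelb gene (ENSDARG00000033760) stood at 21.2, 22.1, 32.6, 58.9 and 71.5 CPM in qKO pools 1 to 5, against 2.59, 3.46, 3.78, 3.34 and 2.99 CPM in WT pools 1 to 5. The WT pools of pmelb were tight, while its qKO pools spanned 1.75 on the log2 scale, with pools 1 and 2 lowest and pools 4 and 5 highest. Its log2 fold change was 3.66 (SE 0.38, a 12.7-fold rise, adjusted p = 0.00019, edgeR), rank 15 of 22894 tested genes by log2 fold change.

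The duplicates were also compared within each pool, where library size cancels. The ratio of pmelb to pmela counts was 0.198, 0.208, 0.377, 0.601 and 0.524 in qKO pools 1 to 5, against 0.0776, 0.0738, 0.0977, 0.0820 and 0.0706 in WT pools 1 to 5. Every qKO pool had more pmelb per pmela than any WT pool, and the mean log2 ratio was 2.11 higher in qKO. The ratio of tyrp1b to tyrp1a was 6.09 ± 0.541 in qKO and 5.13 ± 0.568 in WT (SD, n = 5 each), with a mean log2 difference of 0.25 and with the lowest qKO pool (5.59) just above the highest WT pool (5.58). In two-sided exact permutation tests over 252 assignments both differences had p = 0.00794, the smallest these can give, and 0.00794 after adjustment over the 2 pairs, which were chosen after their values were seen. These tests treat the pools as interchangeable, which the pool sets do not bear out, and how reads shared by duplicates were counted is not given in the sources used here.

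**Figure D2:**
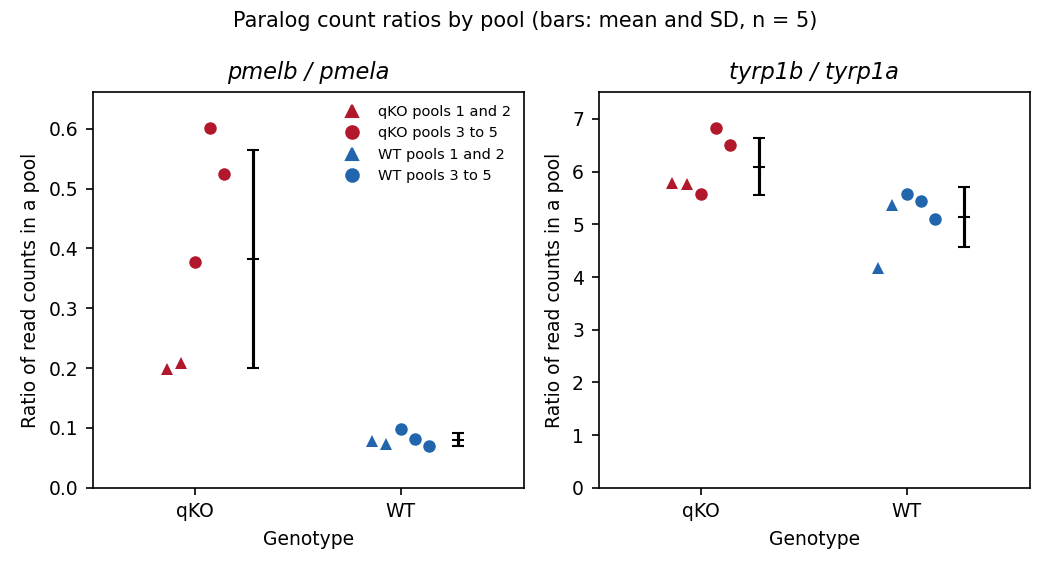
Ratio of read counts of pmelb to pmela (left) and of tyrp1b to tyrp1a (right) in each pool, qKO in red and WT in blue, with pools 1 and 2 as triangles, pools 3 to 5 as circles, and black bars for the mean and SD of 5 pools. The pmelb to pmela ratio lies at 0.198 to 0.601 in qKO and 0.0706 to 0.0977 in WT, while the tyrp1b to tyrp1a ratios of the genotypes nearly touch.

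The 3 transporter genes rose by between 0.62 and 2.35 on the log2 scale. The oca2 gene (ENSDARG00000061303) encodes a melanosomal membrane protein tied to melanosome chloride conductance and acidity, and is mutated in a common form of human albinism. Its level was 4.14, 5.26, 3.74, 5.75 and 6.62 CPM in qKO pools 1 to 5, against 1.42, 1.73, 1.39, 1.28 and 1.49 CPM in WT pools 1 to 5. The lowest qKO pool lay 2.16-fold above the highest WT pool, and the log2 fold change was 1.81 (SE 0.18, adjusted p = 2.8e-05, edgeR).

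The slc24a5 gene (ENSDARG00000024771), a sodium, potassium and calcium exchanger, held 66 to 835 reads in qKO pools and 11 to 57 in WT pools. Its level was 3.11, 2.94, 2.37, 2.92 and 4.21 CPM in qKO pools 1 to 5, against 0.678, 0.780, 0.756, 0.383 and 0.540 CPM in WT pools 1 to 5. The groups lay well apart, and the log2 fold change was 2.35 (SE 0.22, a 5.11-fold rise, adjusted p = 2.69e-05, edgeR).

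The slc45a2 gene (ENSDARG00000002593), whose product keeps the melanosome from becoming too acidic, rose least. Its level was 16.8, 16.2, 12.6, 11.2 and 16.5 CPM in qKO pools 1 to 5, against 7.40, 8.78, 9.77, 10.8 and 10.7 CPM in WT pools 1 to 5. The lowest qKO pool, pool 4, exceeded the highest WT pool, also pool 4, only 1.04-fold. The log2 fold change was 0.62 (SE 0.14, a 1.53-fold rise, adjusted p = 0.00588, edgeR), below that of each of the other 9 genes. With pools 3 to 5 alone it was 0.34 and no longer called (adjusted p = 0.0609, edgeR), whereas with pools 1 and 2 alone it was 1.01 (adjusted p = 0.000243, edgeR).

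The regulator mitfa (ENSDARG00000003732) stood at 3.55, 3.86, 2.93, 3.28 and 3.08 CPM in qKO pools 1 to 5, against 0.924, 1.02, 2.04, 1.53 and 1.27 CPM in WT pools 1 to 5. Here the qKO pools were the tighter group (coefficient of variation 11.2% in qKO and 33.2% in WT), and WT pools 1 and 2 lay below WT pools 3 to 5. The gene held only 15 and 30 reads in WT pools 1 and 2, against 72 to 134 in WT pools 3 to 5 and 74 to 610 in qKO pools. The log2 fold change was 1.25 (SE 0.20, a 2.39-fold rise, adjusted p = 0.000809, edgeR). It was 1.92 (adjusted p = 0.000255, edgeR) between pools 1 and 2 of the genotypes and 0.91 (adjusted p = 0.00355, edgeR) between pools 3 to 5.

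Because the genes rose by unequal amounts, the make-up of the list differed between the genotypes. As a share of the summed CPM of the 10 genes, pmelb took 9.52% ± 3.61 in qKO and 2.92% ± 0.291 in WT (SD, n = 5 each), and dct took 14.1% ± 1.82 in qKO and 8.77% ± 0.655 in WT. The share of tyrp1b was 35.5% ± 0.814 in qKO and 31.6% ± 1.40 in WT. In the other direction, pmela took 26.0% ± 3.02 in qKO and 36.5% ± 2.25 in WT, and slc45a2 took 3.64% ± 0.903 in qKO and 8.56% ± 0.817 in WT. For these 5 genes the shares of the genotypes did not overlap. The shares of tyr, tyrp1a, oca2, slc24a5 and mitfa overlapped. A share falls when others rise more, so the lower shares of pmela and slc45a2 stand beside higher levels of both.

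Within qKO the 10 genes did not all follow the same pools. Pool 5 was the highest qKO pool for tyr, tyrp1a, tyrp1b, dct, pmela, pmelb, oca2 and slc24a5, and pool 3 was the lowest for tyr, tyrp1a, tyrp1b, dct, pmela, oca2, slc24a5 and mitfa. For mitfa the highest qKO pools were pools 1 and 2, and for slc45a2 pools 1, 2 and 5 stood close together above pools 3 and 4. The mean of the 10 centred log2 levels was 0.85, 0.93, 0.64, 0.98 and 1.42 in qKO pools 1 to 5, against -1.23, -0.87, -0.82, -1.01 and -0.89 in WT pools 1 to 5. The root mean square difference of a gene from this mean profile was smallest for tyrp1b (0.11) and tyrp1a (0.12) and largest for pmelb (0.89), on the log2 scale over 10 libraries.

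The pool sets were then compared in every pairing. Between pools 1 and 2 of the genotypes all 10 genes were called higher, against 11.2% of tested genes, and their log2 fold changes ran from 1.01 to 2.80. Between pools 3 to 5, 9 of 10 were called higher, against 20.1% of tested genes, with a range of 0.34 to 3.99. When qKO pools 1 and 2 were set against WT pools 3 to 5, 10 of 10 were called (9.82% of tested genes, range 0.63 to 2.67). When qKO pools 3 to 5 were set against WT pools 1 and 2, 10 of 10 were called (17.3% of tested genes, range 0.74 to 4.13). Each pool set was also summed to 1 sample as raw counts, so its deeper libraries weigh more in the sum. Totals in qKO pools 3 to 5 were 59973605, 20752303 and 191289475 counts, and in WT pools 3 to 5 they were 54145698, 48556835 and 110409906. With these sums, 2 per genotype, 8 of 10 genes remained called, against 0.903% of tested genes. The exceptions were pmelb (log2 fold change 3.69, adjusted p = 0.162, edgeR) and slc45a2 (0.72, adjusted p = 0.0847, edgeR). All 10 genes were also called under each other processing tried on the full set of pools. The share of tested genes called higher was 19.9% with library totals, 10.7% with the upper quartile, 11.7% with DESeq2 size factors, 13.5% with DESeq2's own test, 14.9% with limma-voom, 9.77% with the pool number as a block, 8.55% without a filter and 13.9% with a mean of at least 1 CPM. It lay between 8.49% and 13.7% when a library was left out, and 10 of 10 genes were called each time. For pmelb the log2 fold change was 2.80 between pools 1 and 2 and 3.99 between pools 3 to 5, and this difference between the sets was not tested.

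**Figure D3:**
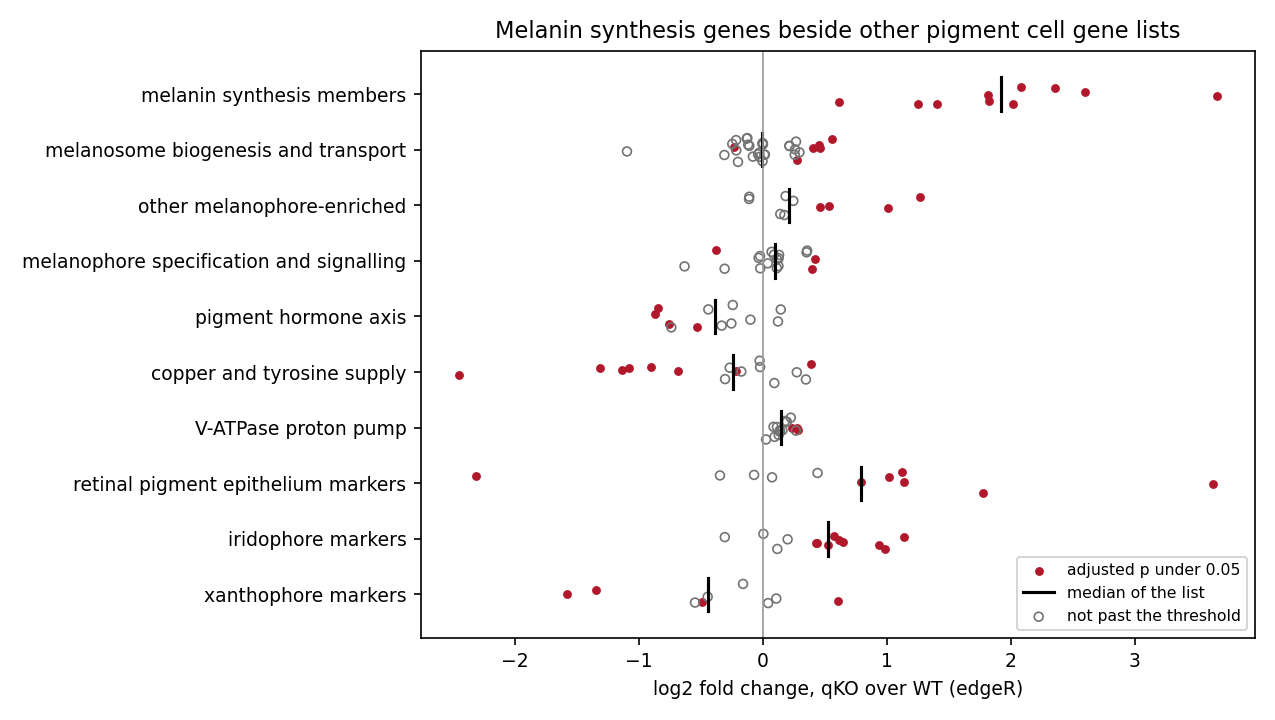
Log2 fold change (qKO over WT) of each tested gene, with the 10 melanin synthesis genes in the top row and 9 other pigment cell gene lists below; filled red points have an adjusted p under 0.05 (edgeR), open points do not, and black bars are list medians. The top row lies wholly right of 0 with a median of 1.92, whereas the list medians below it lie between -0.45 and 0.79.

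Genes that build, fill and specify melanophores were read from further lists. Beside every count of calls from the fit of all pools, here and below, stands the share over all tested genes, 13.4% called higher and 12.5% called lower. Counts under other settings stand beside the share of that setting. With pool sets summed that share was 0.903% called higher and 2.85% called in either direction. Counts at an unadjusted p under 0.05 stand beside 8875 of the 22894 tested genes, both directions together. Of 10 other melanophore-enriched genes 4 were called higher and none lower (6 higher and 0 lower at an unadjusted p under 0.05). The melanosome receptor gene gpr143 stood at 7.01 ± 0.838 CPM in qKO and 3.42 ± 0.859 CPM in WT (SD, n = 5 each; log2 fold change 1.01, adjusted p = 0.001, edgeR), and the tetraspanin gene tspan10 at 2.88 ± 0.912 CPM in qKO and 1.19 ± 0.202 CPM in WT (log2 fold change 1.26, adjusted p = 0.00127, edgeR). The protease gene bace2 rose by 0.46 and zgc:91968 by 0.53 on the log2 scale (adjusted p = 0.00844 and 0.0321, edgeR), the second with overlapping pools. Both were lost when the pool sets were summed, and zgc:91968 also without any of qKO pools 1, 2 and 5 and WT pools 1, 2 and 4 (highest adjusted p = 0.0809, edgeR). Other genes of that list, picked here after their values were seen, were not called: the tetraspanin gene tspan36 averaged 41.8 CPM in qKO and 35.2 CPM in WT, and gpnmb 93.5 CPM in qKO and 82.4 CPM in WT. The channel gene trpm1b averaged 42.0 CPM in qKO and 45.3 CPM in WT, and the potassium channel gene kcnj13 12.7 CPM in qKO and 13.8 CPM in WT. The summed level of the list was 257 to 310 CPM in qKO pools and 238 to 260 CPM in WT pools.

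Of 18 tested genes of melanophore specification and signalling, 2 were called higher and 1 lower, with a median log2 fold change of 0.10. The called share was 16.7%, below the 25.8% of all tested genes. The neural crest factor gene pax3a rose by 0.42 and the deacetylase gene hdac1 by 0.40, and the BMP ligand gene gdf6a fell by 0.38 (adjusted p = 0.0362, 0.00538 and 0.0165, edgeR). The call of pax3a held only without qKO pool 2 or qKO pool 5 when a library was left out (highest adjusted p = 0.114, edgeR). Scaling by library totals gave 4 higher and 0 lower, where 19.9% of all tested genes were called higher. None of the 3 genes was called with the pool sets summed. The receptor gene kita, needed for melanophore migration and survival, stood at 8.99 CPM in qKO and 8.31 CPM in WT, and sox10, the neural crest factor upstream of mitfa, at 27.7 CPM in qKO and 28.2 CPM in WT. Neither of these, named after their values were seen, was called (adjusted p = 0.497 and 0.838, edgeR). The duplicate mitfb was at 0.611 CPM in qKO and 1.02 CPM in WT and was not called (adjusted p = 0.282, edgeR).

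Of 32 tested genes of melanosome biogenesis and transport 5 were called higher and 1 lower, and the median was 0.00. The called share was 18.75%, below the 25.8% of all tested genes. The adaptor subunit gene ap3m1 rose by 0.55, bloc1s2 by 0.40 and hps1, a Hermansky-Pudlak syndrome gene, by 0.45, while vps16, of the vesicle fusion machinery, fell by 0.24 (adjusted p = 0.00454, 0.00538, 0.007 and 0.0108, edgeR). Scaling by library totals gave 8 higher and 0 lower, where 19.9% of all tested genes were called higher. With pool sets summed none was called, beside 0.903% of all tested genes called higher. Of 16 tested subunits of the V-ATPase, the proton pump of melanosomes and other organelles, 3 were called higher (atp6v0b by 0.28, atp6v1ba by 0.27 and atp6v1aa by 0.24), and the median was 0.15. Their called share was also 18.75%. The count of subunits called higher was 12 with library totals, beside the same 19.9% of all tested genes. It was between 1 and 5 when a library was left out (5 without WT pool 3, and 1 without any of qKO pools 3, 4 and 5 and WT pools 1 and 2), and 0 with pool sets summed. The atp6v0b gene was called with any library left out.

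Of 16 genes of copper and tyrosine supply and tyrosine breakdown 7 were called lower and 1 higher. Phenylalanine hydroxylase (pah), which makes tyrosine, stood at 51.6 ± 7.07 CPM in qKO and 96.6 ± 8.25 CPM in WT (SD, n = 5 each; log2 fold change -0.91, adjusted p = 7.37e-05, edgeR). The copper importer gene slc31a1, named after its values were seen, rose by 0.39 (adjusted p = 0.0153, edgeR) with overlapping pools. The breakdown enzyme genes hgd, hpdb and hpda fell by 1.08, 1.31 and 1.14 (adjusted p = 2.88e-05, 9.66e-05 and 0.000601, edgeR). Of the other breakdown genes, also named after their values were seen, tat fell most, by 2.45 (adjusted p = 0.00108, edgeR). It averaged 8.69 CPM in qKO and 47.2 CPM in WT. The gene gstz1 fell by 0.68 with overlapping pools (adjusted p = 0.014, edgeR), and fah, at -0.17, was not called (adjusted p = 0.172, edgeR). In vertebrates these breakdown enzymes are known mainly from the liver.

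Of 12 tested genes of the hormone axis that darkens or pales fish skin 4 were called lower and 0 higher (edgeR). At an unadjusted p under 0.05 it was 6 lower and 0 higher, where 8875 of all 22894 tested genes passed in either direction. DESeq2 also called 0 higher. The pro-opiomelanocortin gene pomca, the source of the darkening hormone, stood at 9.14 ± 1.66 CPM in qKO and 16.6 ± 3.65 CPM in WT (SD, n = 5 each; log2 fold change -0.87, adjusted p = 0.00208, edgeR). The agouti signalling gene asip1, an antagonist of the melanocortin receptor, stood at 1.97 ± 0.428 CPM in qKO and 3.56 ± 0.535 CPM in WT (log2 fold change -0.85, adjusted p = 0.00446, edgeR). The melanin-concentrating hormone genes pmchl and pmch, whose products pale the skin, fell by 0.75 and 0.54 with overlapping pools (adjusted p = 0.028 and 0.0478, edgeR). Between pools 1 and 2 of the genotypes 1 gene of the list was called lower, where 21.4% of tested genes passed in either direction. The log2 fold change of pmchl was 0.045 in that comparison. When a library was left out, pmch was called only without qKO pool 5 or WT pool 1, and pmchl only without qKO pools 1 or 2 or WT pools 1 or 2. The count of lower calls ran from 2 to 5 when a library was left out. It was 2 without any of qKO pools 3 and 4 and WT pools 4 and 5, and 5 without qKO pool 1. With all pools it was 5 with DESeq2 size factors and the upper quartile, and 3 with library totals. With pool sets summed it was 0.

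Of 11 tested markers of the retinal pigment epithelium 6 were called higher and 1 lower, with a median log2 fold change of 0.79. The isomerase gene rpe65a, which defines this epithelium, stood at 67.7, 76.1, 33.0, 79.0 and 98.0 CPM in qKO pools 1 to 5, against 3.94, 6.21, 6.09, 5.87 and 6.05 CPM in WT pools 1 to 5. The groups lay far apart, and the log2 fold change was 3.63 (SE 0.27, adjusted p = 1.49e-05, edgeR). The retinoid-binding gene rlbp1b stood at 22.5 ± 5.56 CPM in qKO and 6.56 ± 1.18 CPM in WT (SD, n = 5 each; log2 fold change 1.77, adjusted p = 3.32e-05, edgeR). The retinol receptor gene stra6 and the dehydrogenase gene rdh5 rose by 1.12 and 1.14 (adjusted p = 0.000208 and 0.000535, edgeR). The lactate transporter gene slc16a8 fell by 2.31 (adjusted p = 0.00217, edgeR), and the transcription factor gene otx2b was at 44.8 CPM in qKO and 42.5 CPM in WT and was not called (adjusted p = 0.632, edgeR); these were named after their values were seen. The summed level of the 11 markers was 168 to 313 CPM in qKO pools and 117 to 145 CPM in WT pools, and none of them was at 0. With pool sets summed 5 markers were still called higher, beside 0.903% of all tested genes. Their part in the rise of the melanin synthesis genes was not tested.

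**Figure D4:**
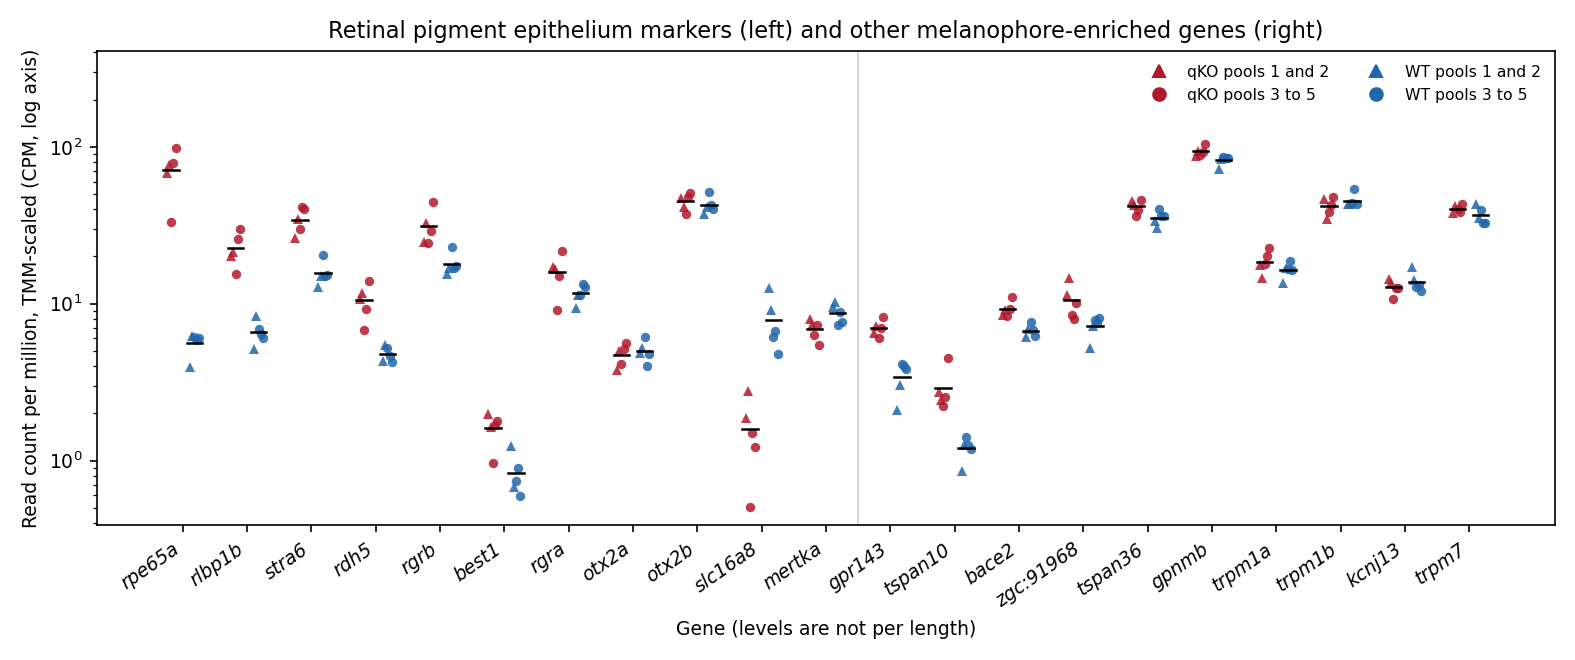
Levels of 11 retinal pigment epithelium markers (left of the grey line) and 10 other melanophore-enriched genes (right) in TMM-scaled CPM (log axis) in each pool, qKO in red left of WT in blue, with triangles for pools 1 and 2, circles for pools 3 to 5 and bars for means of 5 pools. The genotypes are far apart for rpe65a (33.0 to 98.0 CPM in qKO and 3.94 to 6.21 CPM in WT) and overlap for otx2b, trpm1b and kcnj13.

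The marker lists of the other pigment cell types of the larva did not move alike. Of 13 iridophore markers 9 were called higher and 0 lower (edgeR, with the same counts by DESeq2). The counts were also the same at an unadjusted p under 0.05, where 8875 of all 22894 tested genes passed in either direction. The median was 0.52, and the summed level was 666 to 1033 CPM in qKO pools and 517 to 611 CPM in WT pools. The list holds general purine synthesis genes. Among the called markers, the homeobox genes alx4b and alx4a rose by 0.93 and 0.44 (adjusted p = 0.00182 and 0.00115, edgeR). The purine genes gmps and impdh1b rose by 0.57 and 0.64 (adjusted p = 0.000312 and 0.00371, edgeR). When qKO pools 1 and 2 were set against WT pools 3 to 5, 4 iridophore markers were called higher and 1 lower. Of all tested genes 9.82% were called higher in that comparison. With pool sets summed 0 iridophore markers were called higher, beside 0.903% of all tested genes. Not called were ltk (log2 fold change 0.20), tjp1a (0.12), mpv17 (0.00) and tfec (-0.31), the lowest adjusted p being 0.211 for ltk (edgeR). The called genes pnp4a, fhl2a, paics, atic and gart had overlapping pools. These were named after their values were seen. Of 9 xanthophore markers 3 were called lower and 1 higher, with a median of -0.45 and a summed level of 83.6 to 155 CPM in qKO pools and 150.3 to 177 CPM in WT pools. The receptor gene csf1ra, which macrophages also express, fell by 1.35, the purine oxidase gene xdh by 1.58 and pax7b by 0.50, while the sugar transporter gene slc2a15b rose by 0.60 (adjusted p = 0.000475, 0.000118, 0.00923 and 0.00955, edgeR). The other 5 markers, named after their values were seen, were not called (lowest adjusted p = 0.127 for aox5, edgeR). Their log2 fold changes were -0.55 for gch2, -0.45 for aox5, -0.16 for scarb1, 0.11 for pax7a and 0.04 for slc2a11b. For gch2 the direction differed between the pool sets. It stood at 26.4 and 50.5 CPM in qKO pools 1 and 2, against 17.8 and 20.9 CPM in WT pools 1 and 2. In pools 3 to 5 it stood at 8.23, 6.68 and 13.0 CPM in qKO, against 42.2, 26.9 and 44.6 CPM in WT. Whether either list bears on the melanin genes was not tested.

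Outside the 10 genes, the profiles nearest to their mean over the 10 libraries were sought among 20106 tested genes with a mean of at least 1 CPM. The nearest was rlbp1b, at a root mean square difference of 0.16 on the log2 scale, against 0.99 for the size of the mean profile itself. The next were the myosin heavy chain gene myhb (0.18), the myoglobin gene mb (0.18), the gene rrh (0.27), which encodes the opsin-like peropsin of the retinal pigment epithelium in mammals, the moesin gene msnb (0.28), the matrix gene emilin3a (0.28), si:dkey-16p6.1 (0.29) and BX005048.1 (0.31). Their log2 fold changes ran from 1.59 for rrh to 2.38 for BX005048.1. The mean profile differs mainly by genotype, so fold changes near those of the 10 genes follow from the way these genes were picked. The 10 genes were not all near it themselves. Of the 20106 candidates, 4439 lay nearer to the mean profile than pmelb and 461 nearer than slc45a2, but at most 40 nearer than any other member. This is a description of likeness over 10 libraries that share genotype and pool sets.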

How the data were processed

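The authors deposited unnormalised counts of reads for each Ensembl gene, named by symbol, in 10 larval libraries. Per the submitters' processing notes, FastQC 0.11.9, Trim Galore 0.6.6, featureCounts from Subread 2.0.0, MultiQC 1.9 and the build GRCz11 were used; the aligner, annotation release, strand setting and treatment of reads shared by duplicates are not given in the sources used here, so antisense or overlapping reads cannot be told apart. No genome of that build was used, so no coordinates or sequences are given.

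Counts were filtered with filterByExpr, scaled by TMM and compared in R 4.3.3 with edgeR 4.0.16 (robust quasi-likelihood test, no covariates, Benjamini-Hochberg adjustment over 22894 genes). Each SE given with edgeR is the absolute log2 fold change divided by the square root of the test's F statistic. Library totals limit the precision: 3 counts stood for 0.0157 to 0.187 CPM. Biological variation between pools was 16.8%. The labels do not say whether pools of a genotype came from separate clutches, so p-values weigh the genotype difference against the spread between these pools only. The main fit treats the 5 pools of a genotype as independent, which the 2 pool sets do not bear out. No pair of libraries agreed within sampling noise (lowest chi-square per degree of freedom 5.52). On simulated counts for 5 against 5 libraries and 22894 genes the procedure recovered 97.5% of 40 genes changed by 2 on the log2 scale, 80% of 80 changed by 1 and 28.75% of 80 changed by 0.5, with 5 false calls. The simulated pools were independent, without pool sets, and far fewer genes were changed than the 5910 called in the data. These rates therefore need not hold for the data.

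The members, gene lists and pool sets were chosen with earlier results of these data known. Named genes were the 10 members, the targeted genes and nr1d1, at most 4 called genes of each list with the lowest p, and the 8 nearest profiles; others are marked as named after their values were seen. The listed names rab38a, mreg, hps6, ap3b1b, mlana and efemp1 matched no row and were not used, and ednrbb and mchr1a did not pass the filter. Alternatives were other scalings and filters, DESeq2 1.42.0, limma-voom (limma 3.58.1), the pool number as a block, each library left out, and the pool sets.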

Additional observations from a re-analysis of the deposited data

Results flagged for a closer look

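Each set of 5 pools of the members, the named genes, the nearest profiles and the 2 paralog ratios was checked for a single pool standing far from the rest. Such a pool was found in 6 of 116 sets, where chance gives about 1 in 20 for normally distributed values. The sets are not independent, since they come from the same 10 libraries. Among the melanin synthesis genes, tyrp1a stood at 33.9 CPM in qKO pool 5, the deepest library, against 23.5 CPM in the next qKO pool, and tyrp1b stood at 25.9 CPM in WT pool 1, the shallowest library, against 35.6 CPM in the next WT pool. The tetraspanin gene tspan10 stood at 4.48 CPM in qKO pool 5 and 2.75 CPM in the next. The WT pools held the other 3. They are hpda at 63.9 CPM in pool 4 (next 52.1 CPM), rpe65a at 3.94 CPM in pool 1 (next 5.87 CPM) and mb at 24.7 CPM in pool 3 (next 20.9 CPM). With qKO pool 5 left out tyrp1a was still 1.66 higher on the log2 scale, and tspan10 1.00.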

How the results depend on the processing

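Of 230 values of the 10 melanin synthesis genes over 23 alternatives, 227 kept their direction and stayed called, 3 kept their direction without the call, and 0 changed direction; the 3 are slc45a2 between pools 3 to 5 and slc45a2 and pmelb with pool sets summed. With any library left out 10 members stayed called, with a highest adjusted p of 0.0211 (slc45a2 without qKO pool 5, edgeR), while the calls over all genes ran from 4309 to 6363 and those over the other lists from 40 to 50. All genes called numbered 5910, but 9551 between pools 3 to 5 and 700 with pool sets summed, where the other lists had 13 calls in place of 48; the cause was not tested, though summing leaves 2 values per genotype. Among all calls 51.7% were higher in qKO with TMM, 67% with library totals (which moved the median log2 fold change to 0.11), 42.6% with the upper quartile and 46.6% with DESeq2 size factors, and 10 members were called under each. Direction changed for nr1d1 (2.15 and not called with all pools; -1.06 with limma-voom and -1.83 with the replicate block, not called; -4.43 between pools 3 to 5 and -2.05 between qKO pools 3 to 5 and WT pools 1 and 2, both called) and for pmchl (0.045 between pools 1 and 2). Of 1058 values of the other 46 named genes, 935 kept call and direction, 116 lost the call, 2 gained one and 5 changed direction. Pools of the same number did not deviate together (correlations of -0.146 to -0.00017, and 0 of 5 pools correlated best with their own number). Both genotypes nevertheless split into pools 1 and 2 and pools 3 to 5, with nr1d1 differing in opposite directions. Set effects of opposite sign lower such correlations, so whether pools of the same number share anything cannot be read from them. With the pool number as a replicate block 4543 genes, 10 members and 40 other list genes were called. At the shallowest library 3 counts stood for 0.187 CPM, below each member's level.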

Other observations

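In the gene order of the RefSeq annotation of GRCz12tu, used for order only, tyrp1a shares a chromosome with smad3a and smad6a, 439 and 438 tested genes away. The slc24a5 gene shares a chromosome with smad3b and smad6b, 250 and 249 tested genes away. None of the 10 melanin synthesis genes lies within 100 tested genes of a mutated gene.

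Of all genes 746 (3.26% of those tested) were called higher in qKO by at least as much as slc45a2, the least changed of the 10, and 301 were called higher by at least 1 on the log2 scale, as were 9 of the 10. Among the 10 genes, pmelb and dct had both the largest rises and the largest coefficients of variation in qKO (55.1% and 36.7%), and mitfa the smallest coefficient (11.2%), in these 5 pools.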
